A study of Homo sapiens with 12 samples.

Results

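Protein prenylation and CAAX processing are carried out by a small set of enzymes, and 10 genes that encode or supply them were examined here: FNTA, FNTB, PGGT1B, RABGGTA, RABGGTB, CHM, GGPS1, RCE1, ZMPSTE24 and ICMT. They were chosen by name, with no measured value in the rule. Each symbol matched a single Ensembl gene identifier among the 57820 gene rows, and all 10 were among the 17096 genes with enough counts to be tested. Their raw counts ran from 128 in the library with the fewest FNTB reads to 5457 in the library with the most ICMT reads.

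Prenylation joins a farnesyl or a geranylgeranyl lipid to a cysteine near the C terminus of a protein, which lets the protein bind membranes. Proteins that end in the CAAX motif, such as RAS-family GTPases and the lamins, receive the lipid from farnesyltransferase or geranylgeranyl transferase type I. RAB GTPases receive geranylgeranyl groups from a separate enzyme, RAB geranylgeranyl transferase. CAAX proteins are then trimmed by a protease and methylated on the prenylated cysteine. Tipifarnib is an inhibitor of farnesyltransferase.

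Gene counts came from RNA-seq of 12 libraries of human carcinoma cell lines: A549 (lung), SKOV3 (ovarian) and MDA-MB-231 (breast). Each line had been transduced with lentivirus, either a MYC expression vector (pCDH-puro-cMyc) or the pCDH-CMV control vector, so the cells labelled WT also carry a vector. Both versions of each line received DMSO or tipifarnib for 48 hours, at 10 µM in A549 and 20 µM in SKOV3 and MDA-MB-231. The 4 groups (control vector with DMSO, control vector with tipifarnib, MYC vector with DMSO, MYC vector with tipifarnib) thus held 3 libraries each, 1 per line. MYC-vector cells were selected with puromycin at a concentration set for each line. Whether the control-vector cells were selected, and whether each population was a clone or a pool, is not given in the sources used here. A line is the replicate when a drug or vector effect is tested over lines, and nothing in the labels gives separate cultures of a line. The fit over lines counts the 2 pairs of a line separately, so its p-values may be too small.

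The libraries held 20481363 to 26962994 counts assigned to genes. MYC was between 48.4 and 349 CPM (counts scaled to the library's TMM-adjusted total) with the control vector and between 494 and 1593 CPM with the MYC vector. It was higher with the MYC vector by 2.61 ± 0.24 on the log2 scale (SE, 12 libraries of 3 lines, edgeR quasi-likelihood test, adjusted p = 0.00745). MYC was also higher with tipifarnib in MDA-MB-231 (log2 difference 1.204 ± 0.26, adjusted p = 0.011). The line markers separated A549 well and MDA-MB-231 poorly. For A549, AKR1B10 (1406 to 2930 CPM, at most 6.29 elsewhere), AKR1C2, ALDH1A1 and ALDH3A1 lay above every library of the other lines, while TSPAN8 reached only 6.61 CPM. For SKOV3, PAX8 (173 to 265 CPM, at most 8.46 elsewhere), ERBB2 and SPP1 did so, while FN1 and LCN2 overlapped A549. For MDA-MB-231 only ZEB1 did (107 to 141 CPM, at most 86.4 elsewhere): VIM and CD44 overlapped SKOV3, and CAV1 and MSN were higher in SKOV3 (log2 difference from MDA-MB-231 0.69 ± 0.14 and 0.48 ± 0.11, adjusted p = 0.00161 and 0.00266). Of the genes listed as absent from these lines, PTPRC was at most 0.505 CPM and PGR at most 0.13 CPM, PECAM1 was not matched, and ESR1 was at 27.6 to 83.8 CPM in SKOV3, where it was lower with tipifarnib (-1.06 ± 0.27, adjusted p = 0.0299). Some marker genes also moved with the conditions: of the 5 SKOV3 markers, LCN2 (log2 difference 2.17 ± 0.38) and PAX8 (0.68 ± 0.18) were higher with tipifarnib over the lines (adjusted p = 0.00699 and 0.0363) and FN1 was lower with the MYC vector (log2 difference -2.77 ± 0.41, adjusted p = 0.0108), and their part in the results that follow was not tested.

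Promoter sequence is shown for 4 of the members, which leaves out GGPS1 (tipifarnib in MDA-MB-231) and RABGGTA (MYC vector in A549), although both passed a test there. Of those shown, RABGGTB differed with the MYC vector, and ICMT and ZMPSTE24 differed with tipifarnib in MDA-MB-231. FNTB is shown because it encodes the beta subunit of farnesyltransferase, the enzyme that tipifarnib inhibits. The sequences are the 250 bases before the annotated transcription start, 5′ to 3′ on the gene's strand, from RefSeq on GRCh38.p14, at chr1:75786006-75786255 (plus strand, RABGGTB), chr1:6235965-6236214 (minus strand, ICMT), chr1:40257986-40258235 (plus strand, ZMPSTE24) and chr14:64986645-64986894 (plus strand, FNTB). Capitals mark the letters CCAAT, the only searched motif that these 4 sequences hold.
RABGGTB: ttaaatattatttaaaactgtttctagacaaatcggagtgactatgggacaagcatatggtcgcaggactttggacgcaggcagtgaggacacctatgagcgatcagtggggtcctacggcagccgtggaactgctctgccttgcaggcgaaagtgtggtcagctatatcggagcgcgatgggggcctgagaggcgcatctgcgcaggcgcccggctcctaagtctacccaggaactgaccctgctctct
ICMT: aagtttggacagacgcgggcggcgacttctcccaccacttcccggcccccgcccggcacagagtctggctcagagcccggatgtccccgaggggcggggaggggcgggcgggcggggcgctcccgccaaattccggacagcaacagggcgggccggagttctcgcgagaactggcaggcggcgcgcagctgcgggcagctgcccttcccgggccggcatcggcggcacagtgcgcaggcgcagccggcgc
ZMPSTE24: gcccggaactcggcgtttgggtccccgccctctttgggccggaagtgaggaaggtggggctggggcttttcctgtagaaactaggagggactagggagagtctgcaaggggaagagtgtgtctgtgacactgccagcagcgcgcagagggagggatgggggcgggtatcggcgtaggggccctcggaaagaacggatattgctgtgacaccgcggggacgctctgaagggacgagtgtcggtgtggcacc
FNTB: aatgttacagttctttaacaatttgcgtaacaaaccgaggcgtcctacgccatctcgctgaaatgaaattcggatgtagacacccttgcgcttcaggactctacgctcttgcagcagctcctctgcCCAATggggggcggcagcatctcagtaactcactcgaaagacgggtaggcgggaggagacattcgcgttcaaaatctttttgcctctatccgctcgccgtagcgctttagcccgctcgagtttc

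The reference table held 15 start-site windows of 300 bases (250 before the start and 50 after) for 9 of the 10 genes, all but FNTA. They were searched on both strands for CACGTG (the canonical E-box letters, a binding motif of MYC with MAX), for CCAAT and for TCACNCCAC (a sterol response element pattern). None of the 15 windows held CACGTG, which is in 7.26% of all 35114 windows of that table. TCACNCCAC was also in none of them, against 1.13% of all windows. CCAAT, in 34.62% of all windows, was in the FNTB window, with its first base at -124 from the start, and in 1 of the 3 GGPS1 windows. By base composition the ICMT window was 76.0% G and C and the FNTB window 52.0%, against a median of 58.7% over all windows. A match or its absence describes these letters only.

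The differences between cell lines held the largest share of the spread of log2 CPM over the 12 libraries for 9 of the 10 genes. The exception was ZMPSTE24, a zinc metalloprotease that matures prelamin A, with 6.34% of its sum of squares between lines and 81.9% left after line, vector and treatment. For RABGGTB, the catalytic subunit of RAB geranylgeranyl transferase, 87.4% lay between lines. The median over all tested genes was 71.8%. The SD over the 12 libraries ran from 0.24 (RCE1 and ZMPSTE24) to 1.04 (RABGGTB) on the log2 CPM scale, against a median of 0.66 over all tested genes. CPM is not scaled to transcript length, so levels are compared here between libraries and not between genes.

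**Figure D1:**
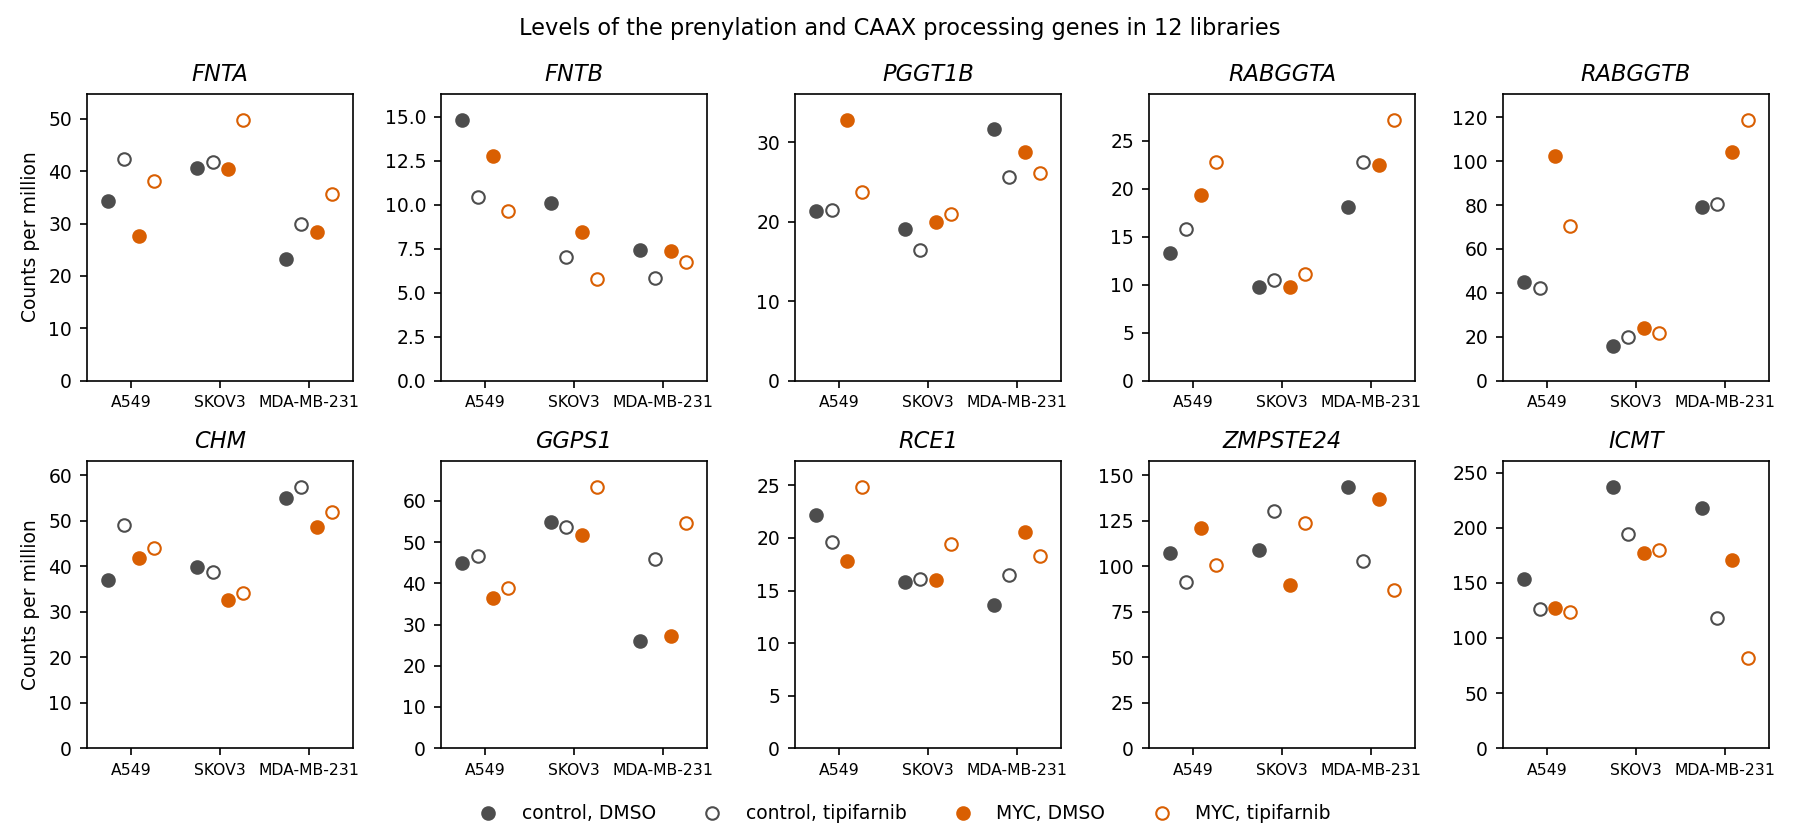
CPM (y axis, starting at 0 in each panel) of the 10 genes in all 12 libraries, with the lines side by side and the vector and treatment told apart by marker; each point is 1 library. RABGGTB sat at 15.8 to 23.8 CPM in SKOV3 and at 79.3 to 119 CPM in MDA-MB-231, and ICMT in MDA-MB-231 fell into a DMSO pair at 171 and 218 CPM and a tipifarnib pair at 82.1 and 118 CPM.

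The first question is how the enzymes of each branch differ between the lines, with vector and treatment balanced (4 libraries per line). RAB geranylgeranyl transferase differed most. RABGGTB was at 20.3 ± 3.41 CPM in SKOV3 (SD, n = 4), at 64.9 ± 27.9 in A549 and at 95.6 ± 19.2 in MDA-MB-231, and the 4 SKOV3 libraries lay below all 8 others. It was lower in SKOV3 than in MDA-MB-231 on the log2 scale (-2.22 ± 0.11, SE, edgeR adjusted p = 9.02e-08), higher in A549 than in SKOV3 (1.59 ± 0.11, adjusted p = 8.93e-07) and lower in A549 than in MDA-MB-231 (-0.63 ± 0.11, adjusted p = 0.000425). RABGGTA, the alpha subunit of the same enzyme, followed the same order, at 10.3 ± 0.642 CPM in SKOV3, 17.8 ± 4.14 in A549 and 22.6 ± 3.73 in MDA-MB-231. Its log2 differences were -1.13 ± 0.11 for SKOV3 against MDA-MB-231, 0.77 ± 0.11 for A549 against SKOV3 and -0.36 ± 0.11 for A549 against MDA-MB-231 (adjusted p = 8.12e-06, 0.000138 and 0.0125). The last of these was -0.35 with adjusted p = 0.0579 without the MDA-MB-231 library with control vector and tipifarnib. CHM, the escort protein that presents RABs to the enzyme, was at 36.3 ± 3.48 CPM in SKOV3, 42.9 ± 5.08 in A549 and 53.2 ± 3.78 in MDA-MB-231, lower in SKOV3 than in MDA-MB-231 (-0.56 ± 0.09, adjusted p = 0.000271). A549 was below MDA-MB-231 by a fitted -0.31 ± 0.09 (adjusted p = 0.00971, up to 0.0679 under the alternatives). The CHM call between A549 and SKOV3 (0.24 ± 0.09, adjusted p = 0.032) had adjusted p-values up to 0.182 under the alternatives run. In these bulk libraries, fewer cells of a state and less RNA per cell cannot be told apart.

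The CAAX prenyltransferase subunits did not share an order. FNTA, the alpha subunit common to farnesyltransferase and geranylgeranyl transferase type I, was at 29.3 ± 5.13 CPM in MDA-MB-231, 35.6 ± 6.29 in A549 and 43.2 ± 4.51 in SKOV3, and was higher in SKOV3 than in MDA-MB-231 by 0.57 ± 0.09 (log2, adjusted p = 0.000242). The neighbours in that order were closer: A549 lay below SKOV3 (-0.29 ± 0.09, adjusted p = 0.0139, up to 0.11 under the alternatives) and above MDA-MB-231 by 0.28 ± 0.09 (adjusted p = 0.0187, up to 0.0926). FNTB was highest in A549, at 11.9 ± 2.35 CPM against 7.83 ± 1.87 in SKOV3 and 6.83 ± 0.723 in MDA-MB-231. It was higher in A549 than in SKOV3 by 0.61 ± 0.13 (adjusted p = 0.00233) and than in MDA-MB-231 by 0.79 ± 0.14 (adjusted p = 0.000525), while SKOV3 and MDA-MB-231 differed by 0.17 ± 0.14 (adjusted p = 0.286). PGGT1B, the beta subunit of geranylgeranyl transferase type I, was lowest in SKOV3 (19.1 ± 1.92 CPM, against 24.8 ± 5.44 in A549 and 28.0 ± 2.77 in MDA-MB-231). It was lower in SKOV3 than in MDA-MB-231 (-0.55 ± 0.11, adjusted p = 0.00165) and than in A549 (A549 against SKOV3 0.36 ± 0.12, adjusted p = 0.0174, up to 0.117 under the alternatives), and A549 and MDA-MB-231 differed by -0.19 ± 0.11 (adjusted p = 0.173).

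Of the enzymes that supply the lipid or act after it is attached, GGPS1 and ICMT differed between lines. GGPS1, which makes geranylgeranyl diphosphate, was higher in SKOV3 (55.9 ± 5.14 CPM) than in MDA-MB-231 (38.4 ± 14.1 CPM, log2 difference 0.61 ± 0.09, adjusted p = 0.000151) and than in A549 (41.7 ± 4.88 CPM, A549 against SKOV3 -0.43 ± 0.09, adjusted p = 0.00171). Its gap between SKOV3 and MDA-MB-231 was wider under DMSO (54.8 and 51.8 CPM against 26.0 and 27.1). Under tipifarnib it was narrower (53.6 and 63.4 CPM against 46.0 and 54.5). ICMT, the methyltransferase of the last step, was also highest in SKOV3 averaged over the treatments, at 197 ± 27.8 CPM, and exceeded MDA-MB-231 by 0.51 ± 0.09 (adjusted p = 0.000498) and A549 by a similar margin (A549 against SKOV3 -0.57 ± 0.09, adjusted p = 0.000245). The gap between SKOV3 and MDA-MB-231 lay mostly in the tipifarnib libraries (195 and 179 CPM against 118 and 82.1). Under DMSO these lines were close in ICMT, at 237 and 177 CPM against 218 and 171. RCE1, the CAAX endoprotease, and ZMPSTE24 passed the test in none of the 3 line comparisons, which average over the treatments. For ZMPSTE24 the treatments ran opposite ways between 2 of the lines. With DMSO it was at 143 and 137 CPM in MDA-MB-231 and 109 and 89.5 in SKOV3. With tipifarnib it was at 103 and 87.1, and 131 and 124. RCE1 was at 16.8 ± 1.75 CPM in SKOV3, 17.2 ± 2.94 in MDA-MB-231 and 21.1 ± 3.06 in A549. In all, 8 of the 10 genes passed between A549 and SKOV3 (5 higher and 3 lower in A549, against 68.9% of all genes tested, 34.7% higher and 34.1% lower), 5 between A549 and MDA-MB-231 (2 higher and 3 lower in A549, against 67.9%, 35.6% higher and 32.3% lower) and 7 between SKOV3 and MDA-MB-231 (3 higher and 4 lower in SKOV3, against 71.3%, 37.3% higher and 34.1% lower). The counts were near the share of all genes in the comparisons with SKOV3 and below it between A549 and MDA-MB-231, a gap that was not tested. Each line is 1 cell population, so the tests cover the spread between its 4 libraries after the vector and drug effects.

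The second question is whether inhibiting farnesyltransferase was accompanied by a change in the RNA of these enzymes. Over the 3 lines and both vectors, none of the 10 passed the edgeR quasi-likelihood test at an adjusted p of 0.05. Of all genes tested, 11.3% did (4.66% higher and 6.63% lower). At an unadjusted p under 0.05 there were 4 of the 10, against 27.8% of all genes. DESeq2 called 2 of the 10 and limma-voom 1. The members' median log2 difference was 0.04, beside 0.00 over all genes. Those 4 genes were FNTA, FNTB, ICMT and GGPS1, and they did not share a direction.

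The farnesyltransferase subunits went opposite ways in all 6 pairs of libraries that differ only in the drug. FNTA was at 34.2 and 42.4 CPM in A549 with the control vector (DMSO, then tipifarnib), and at 27.6 and 38.1 with the MYC vector. In SKOV3 it was at 40.6 and 41.8, and at 40.3 and 49.9. In MDA-MB-231 the pairs were 23.2 and 29.9, and 28.5 and 35.7. FNTA was therefore the higher with tipifarnib in every pair, by 0.04 to 0.46 on the log2 scale, and the fitted difference over the lines was 0.30 ± 0.10 (SE, edgeR adjusted p = 0.0937; DESeq2 adjusted p = 0.0452). FNTB was at 14.8 and 10.4 CPM in A549 with the control vector and at 12.8 and 9.64 with the MYC vector. In SKOV3 the FNTB pairs were 10.1 and 7.002, and 8.45 and 5.77. In MDA-MB-231 they were 7.40 and 5.86, and 7.37 and 6.72. FNTB was the lower with tipifarnib in every pair, by a fitted -0.41 ± 0.14 (edgeR adjusted p = 0.089; DESeq2 0.0216; limma-voom 0.0497). Neither gene's difference was called by the main test within any single line. FNTB had an adjusted p of 0.0952 in SKOV3 (-0.54 ± 0.19), 0.167 in A549 (-0.46 ± 0.19) and 0.433 in MDA-MB-231 (-0.23 ± 0.20).

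As a description of the same pair, FNTB counts per 100 FNTA counts were lower with tipifarnib in each of the 6 pairs. In A549 the ratio was 43.3 with DMSO and 24.6 with tipifarnib in control-vector cells, and 46.3 and 25.3 in MYC-vector cells. In SKOV3 it was 24.9 and 16.7, and 20.9 and 11.6. In MDA-MB-231 it was 31.9 and 19.6, and 25.9 and 18.8. The direction of this ratio follows from the values above, and it is a ratio of counts, not of protein subunits. FNTB shares 42.1% of its exonic bases with the readthrough gene CHURC1-FNTB in GENCODE 29, so its counts, and this ratio, depend on how reads over both genes were assigned, which is not given in the sources used here. The CHURC1-FNTB row held 0 counts in all 12 libraries. Because the counting mode is not given, that 0 cannot show whether readthrough RNA was present. PGGT1B, which shares the FNTA subunit, had no such pattern: it was higher with tipifarnib in 2 pairs and lower in 4 (-0.18 ± 0.12, adjusted p = 0.355).

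**Figure D2:**
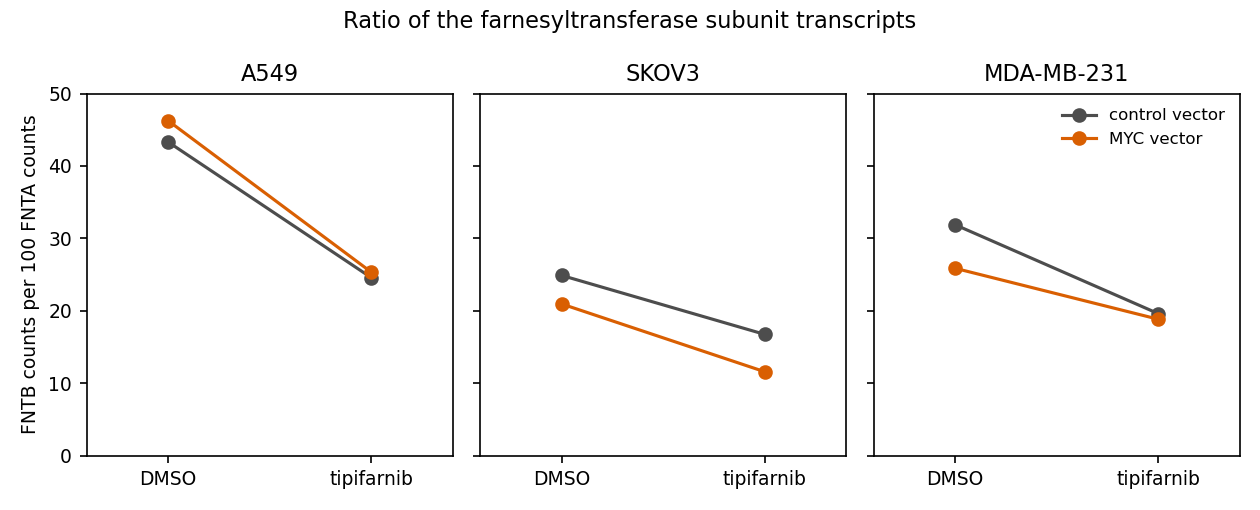
FNTB counts per 100 FNTA counts (y axis) in each of the 12 libraries, with a line joining the DMSO and tipifarnib libraries of 1 cell line and vector. All 6 lines slope down, from 46.3 to 25.3 in A549 with the MYC vector at the top and from 20.9 to 11.6 in SKOV3 with the MYC vector at the bottom.

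MDA-MB-231 was the line in which members passed the tipifarnib test on its own. ICMT was at 218 CPM with DMSO and 118 with tipifarnib in control-vector cells, and at 171 and 82.1 in MYC-vector cells. It was therefore lower in both pairs without overlap, with a fitted log2 difference of -0.97 ± 0.13 (0.510-fold, adjusted p = 0.00104). ZMPSTE24 was at 143 and 103 CPM with the control vector and at 137 and 87.1 with the MYC vector, lower by -0.57 ± 0.11 (adjusted p = 0.00706). GGPS1 moved the other way, from 26.0 to 46.0 CPM and from 27.1 to 54.5 CPM (0.91 ± 0.13, 1.89-fold, adjusted p = 0.00148). Thus 3 of the 10 passed in this line, 1 higher and 2 lower, against 22.7% of all genes tested (10.6% higher and 12.1% lower). These calls rest on 2 pairs and the spread of all 3 lines: without either MYC-vector library of MDA-MB-231, the adjusted p was 0.0504 to 0.0518 for ICMT and 0.0588 to 0.06 for GGPS1, and ZMPSTE24 was at 0.0707 to 0.158 without any 1 of the line's 4 libraries. Line markers moved in the same libraries: of the 5 listed for MDA-MB-231, CAV1 was lower with the drug there (-1.66 ± 0.21, adjusted p = 0.000914). Of the 5 for SKOV3, PAX8 was higher (1.33 ± 0.17, adjusted p = 0.00114) and FN1 lower (-0.44 ± 0.14, adjusted p = 0.0437), and of the 4 tested for A549, AKR1C2 was higher (2.34 ± 0.31, adjusted p = 0.00109, at most 3.75 CPM). Their part in the members' differences was not tested. GGPS1 shares 41.0% of its exonic bases with exons of TBCE and ARID4B in GENCODE 29, so part of its count depends on how reads over both genes were assigned.

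In the other lines the same 3 genes had smaller or opposite differences. ICMT in A549 was at 154 and 126 CPM with the control vector and 127 and 123 with the MYC vector (-0.17 ± 0.12, adjusted p = 0.451), and in SKOV3 at 237 and 195, and 177 and 179 (-0.13 ± 0.12, adjusted p = 0.537). ZMPSTE24 was the higher with tipifarnib in SKOV3, at 109 and 131 CPM with the control vector and 89.5 and 124 with the MYC vector (0.36 ± 0.11, adjusted p = 0.0581), and the lower in A549, at 107 and 91.2, and 121 and 101 (-0.25 ± 0.11, adjusted p = 0.204). GGPS1 differed by 0.08 ± 0.13 in A549 and 0.13 ± 0.12 in SKOV3 (adjusted p = 0.751 and 0.546). None of the 10 passed in A549, against 8.04% of all genes called, 3.56% higher and 4.48% lower. None passed in SKOV3, against 14% called, 6.57% higher and 7.48% lower, where DESeq2 and limma-voom each called 1. At an unadjusted p under 0.05 there were 2 in A549, against 24.9% of all genes, and 2 in SKOV3, against 28.7%.

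The differences between the lines' responses were tested directly with an F test in the same fit. ICMT, ZMPSTE24 and GGPS1 passed it (adjusted p = 0.0297, 0.0217 and 0.0326), 3 of 10 against 7.69% of all genes, and the other 7 had adjusted p-values of 0.305 to 0.954. The dose in A549 was lower, so dose and line cannot be told apart there. SKOV3 and MDA-MB-231 had the same dose, and a comparison of only these lines, chosen after the data were seen, gave MDA-MB-231 minus SKOV3 differences of -0.84 ± 0.18 for ICMT, -0.93 ± 0.16 for ZMPSTE24 and 0.79 ± 0.18 for GGPS1 (adjusted p = 0.0247, 0.0137 and 0.0323, against 7.34% of all genes called, 3.85% higher and 3.49% lower). Because MDA-MB-231 sets them apart, the fitted difference over lines for ICMT (-0.42 ± 0.15, adjusted p = 0.0966) was -0.14 without that line, and that for GGPS1 (0.37 ± 0.15, adjusted p = 0.141) was 0.12.

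**Figure D3:**
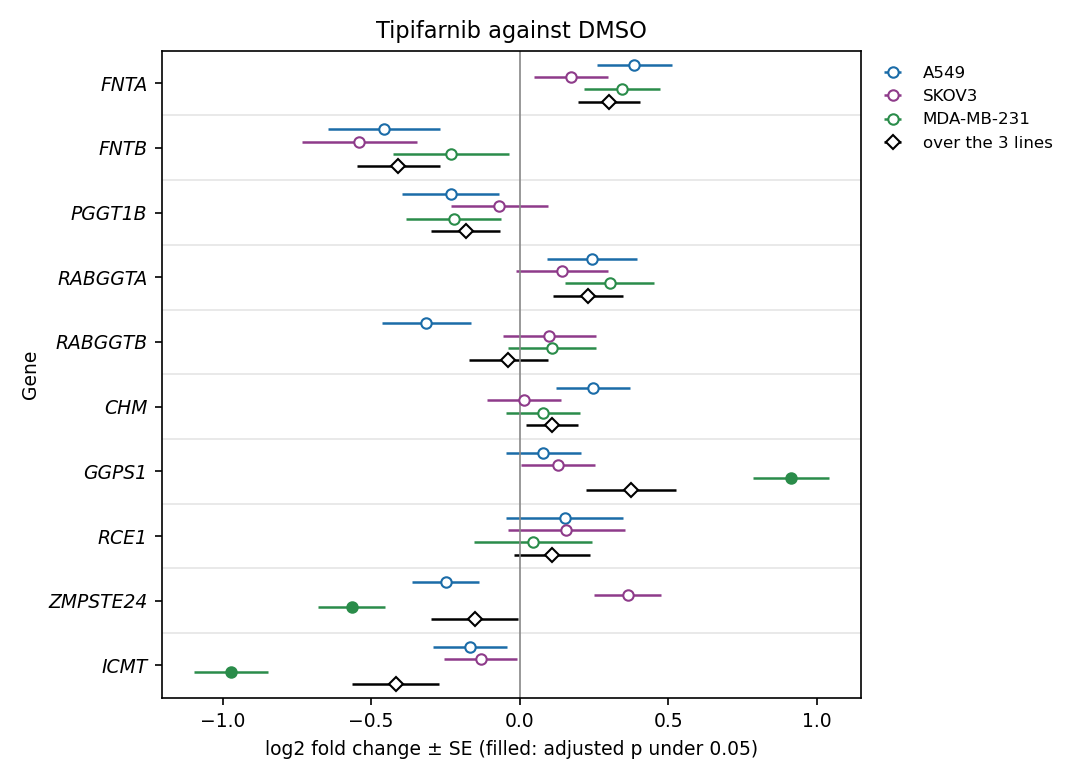
Log2 fold change with tipifarnib ± SE (x axis) of each gene in A549, SKOV3 and MDA-MB-231 (circles, 2 pairs each) and over the 3 lines (diamonds), with filled symbols for an adjusted p under 0.05. The filled symbols are ICMT at -0.97, ZMPSTE24 at -0.57 and GGPS1 at 0.91 in MDA-MB-231, and FNTB lies left of 0 and FNTA right of 0 in all 3 lines.

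None of the remaining members passed with the drug. RABGGTA was the higher with tipifarnib in all 6 pairs, by 0.09 to 0.33 on the log2 scale (0.23 ± 0.12, adjusted p = 0.242). RABGGTB was higher in 3 pairs and lower in 3 (-0.04 ± 0.13, adjusted p = 0.884). RCE1 differed by 0.11 ± 0.13 and CHM by 0.11 ± 0.09 (adjusted p = 0.633 and 0.456). CHML, the second RAB escort gene and not a member, was at 117 and 60.7 CPM in MDA-MB-231 with the control vector and 104 and 60.5 with the MYC vector (-0.86 ± 0.12, adjusted p = 0.00133). It was also lower in A549 (-0.63 ± 0.12, adjusted p = 0.0164) and stayed between 32.5 and 36.5 CPM in SKOV3. CHM itself was at 55.0 and 57.4, and 48.6 and 52.0 CPM in the same MDA-MB-231 pairs.

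The third question is whether the MYC vector changed these genes. RABGGTB was the member that passed over the 3 lines, 1 of 10 higher and none lower against 7.35% of all genes called, 4.5% higher and 2.84% lower. In A549 it was at 44.8 CPM with the control vector and 102 with the MYC vector under DMSO, and at 42.2 and 70.5 under tipifarnib. In SKOV3 the pairs were 15.8 and 23.8, and 20.0 and 21.8. In MDA-MB-231 they were 79.3 and 104, and 80.4 and 119. All 6 pairs were higher with the MYC vector, by 0.13 to 1.19 on the log2 scale. The fitted difference was 0.61 ± 0.13 (1.52-fold, 12 libraries of 3 lines, edgeR adjusted p = 0.0277). The call did not hold with fewer lines: the adjusted p was 0.203 without A549 (difference 0.42), 0.0804 without SKOV3 (0.72) and 0.114 without MDA-MB-231 (0.65), fits in which 148 genes or fewer were called in all. RABGGTB holds small nucleolar RNA genes of the SNORD45 group within its gene body, and 6.6% of its exonic bases lie in other genes' exons.

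Within the lines, RABGGTB and RABGGTA passed in A549, 2 of 10 higher against 17.7% of all genes called, 9.94% higher and 7.8% lower. RABGGTB was higher there by 0.97 ± 0.15 (1.95-fold, adjusted p = 0.00268). RABGGTA was at 13.3 and 19.3 CPM under DMSO and 15.8 and 22.8 under tipifarnib (0.53 ± 0.15, adjusted p = 0.0385), so both subunits of the enzyme were higher in both A549 pairs. Marker genes moved in the same libraries: of the 5 listed for MDA-MB-231, VIM (-0.98 ± 0.14), CAV1 (-1.23 ± 0.21) and CD44 (-1.41 ± 0.26) were lower with the MYC vector. Of the 5 for SKOV3, FN1 was lower (-4.15 ± 0.15, adjusted p = 9.88e-07) and LCN2 higher (1.73 ± 0.40, adjusted p = 0.0166). None of the 4 tested for A549 passed (0 at an unadjusted p under 0.05, against 31.1% of all genes). Their part in the RABGGTA and RABGGTB differences was not tested. Without either A549 library with DMSO, the adjusted p for RABGGTB was 0.0515 to 0.0529, and without any 1 of the 4 A549 libraries that for RABGGTA was 0.144 to 0.192. In SKOV3 the RABGGTB difference was 0.36 ± 0.16 (adjusted p = 0.203) and in MDA-MB-231 0.48 ± 0.15 (adjusted p = 0.126). The F test for a difference between lines gave an adjusted p of 0.281 for RABGGTB and 0.455 for RABGGTA. None of the 10 passed it, against 3.07% of all genes called. At an unadjusted p under 0.05 there were 2, against 16.2% of all genes. CHM, which works with this enzyme, differed by -0.13 ± 0.09 over the lines (adjusted p = 0.399).

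**Figure D4:**
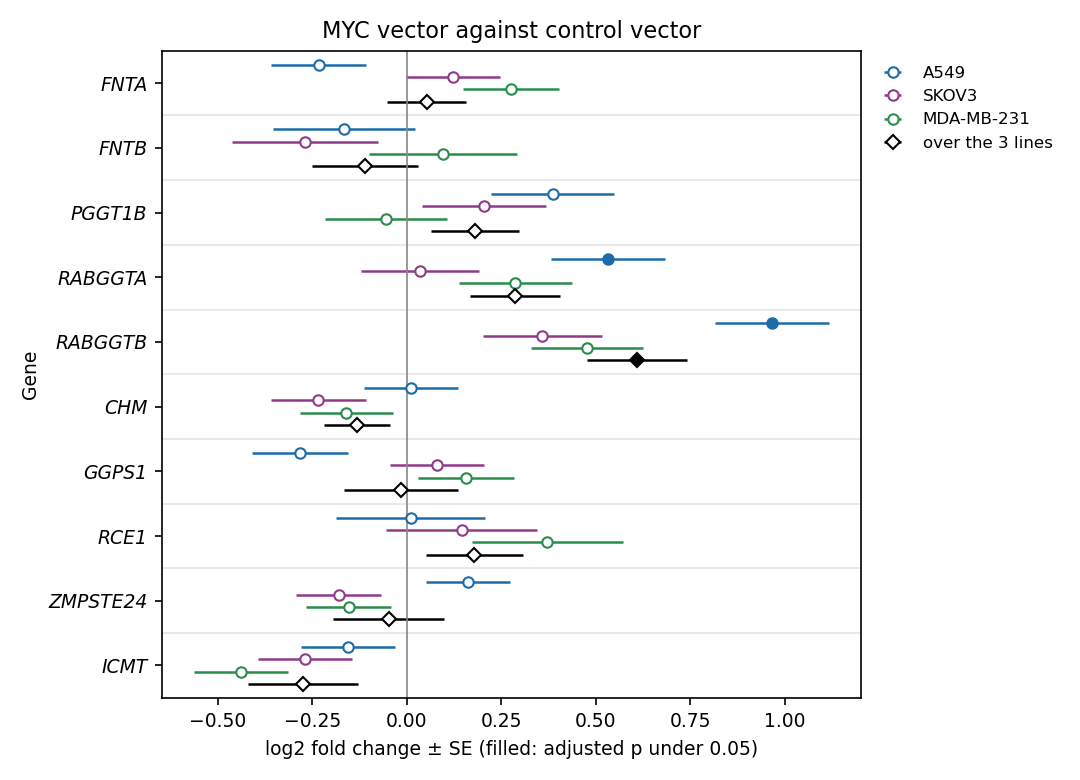
Log2 fold change with the MYC vector against the control vector ± SE (x axis) of each gene in A549, SKOV3 and MDA-MB-231 (circles, 2 pairs each) and over the 3 lines (diamonds), with filled symbols for an adjusted p under 0.05. RABGGTB is filled over the lines at 0.61 and in A549 at 0.97, RABGGTA is filled in A549 at 0.53, and the ICMT symbols all lie left of 0.

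ICMT was the lower with the MYC vector in all 6 pairs, by 0.03 to 0.52 on the log2 scale, with a fitted difference of -0.27 ± 0.15 (adjusted p = 0.283). Its largest difference was in MDA-MB-231 (-0.44 ± 0.12, adjusted p = 0.104). FNTA, FNTB and PGGT1B differed over the lines by 0.05 ± 0.10, -0.11 ± 0.14 and 0.18 ± 0.12 (adjusted p = 0.808, 0.684 and 0.383). GGPS1, ZMPSTE24 and RCE1 differed by -0.02 ± 0.15, -0.05 ± 0.15 and 0.18 ± 0.13 (adjusted p = 0.964, 0.882 and 0.434). None of the 10 passed in SKOV3, against 9.08% of all genes called, 4.58% higher and 4.5% lower, and DESeq2 and limma-voom called 0. None passed in MDA-MB-231, against 1.64% called, 0.813% higher and 0.831% lower, where DESeq2 called 1 and limma-voom 0. At an unadjusted p under 0.05 there was 1 in SKOV3, against 23.7% of all genes, and 2 in MDA-MB-231, against 18.3%. The effect of tipifarnib did not differ detectably between MYC-vector and control-vector cells for any of the 10: the interaction had adjusted p = 1 for each, and edgeR called 0% of all genes, with 125 at an unadjusted p under 0.05 and no member among them.

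Other genes of the pathway were read from lists chosen by function. Of the 8 mevalonate pathway genes, which make the farnesyl precursor, FDPS (farnesyl diphosphate synthase) was among 2 that were higher with tipifarnib over the lines, against 4.66% of all genes, by 0.62 ± 0.17 (adjusted p = 0.0401). None was lower, and the list's median was 0.68 beside 0.00 over all genes. Within lines, 0 of 8 passed in A549, 6 were higher in SKOV3 and 4 in MDA-MB-231, against 3.56%, 6.57% and 10.6% of all genes. In A549, 1 was at an unadjusted p under 0.05, against 24.9% of all genes. FDPS was at 27.2 and 62.4 CPM in SKOV3 with the control vector and at 38.0 and 67.0 with the MYC vector. In MDA-MB-231 it was at 57.3 and 87.2, and at 67.2 and 110 (0.66 ± 0.23, adjusted p = 0.0678). In A549 the pairs ran opposite ways, at 35.6 and 26.0 with the control vector and 29.1 and 50.5 with the MYC vector (0.18 ± 0.24, adjusted p = 0.701). GGPS1, which takes the product of this pathway, was thus called higher in MDA-MB-231 but not in SKOV3, where ACAT2 (2.06 ± 0.20), MVD (1.63 ± 0.20) and FDPS (1.01 ± 0.24) were among the genes called. With the MYC vector, none of the 8 passed over the lines (0 at an unadjusted p under 0.05, against 24.3% of all genes). FDPS had the smallest p (0.26 ± 0.16).

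For the lists that follow, the shares of all genes were 4.66% higher and 6.63% lower with tipifarnib, and 4.5% higher and 2.84% lower with the MYC vector. The next list holds 7 genes for enzymes that draw on the same diphosphates, directly or, as for COQ2, through a longer chain built from them. Of these, FDFT1 (squalene synthase) was higher with tipifarnib (0.82 ± 0.18, adjusted p = 0.0211) and COQ2 (ubiquinone prenylation) lower (-0.36 ± 0.10, adjusted p = 0.0445). PDSS1, a subunit of the enzyme that makes the ubiquinone side chain, was higher with the MYC vector (0.67 ± 0.15, adjusted p = 0.0317). Of 10 genes for carriers and dissociation inhibitors of prenylated proteins, GDI2 (-0.29 ± 0.08, adjusted p = 0.0497) and ARL3 (-0.42 ± 0.09, adjusted p = 0.015) were lower with tipifarnib. GDI2 extracts prenylated RABs from membranes, and ARL3 releases lipidated cargo from its carriers. ARL3 was also lower with the MYC vector (-0.35 ± 0.09, adjusted p = 0.0374). Of 9 genes for acylation and turnover of prenylated proteins, ZDHHC9, a RAS palmitoyltransferase, was higher with tipifarnib (0.39 ± 0.11, adjusted p = 0.0492), and PCYOX1, which degrades prenylcysteine, was lower with the MYC vector (-0.39 ± 0.09, adjusted p = 0.0335). Of 3 other prenyltransferase and escort genes (CHML, PTAR1 and COX10), none passed with tipifarnib over the lines. At an unadjusted p under 0.05 there was 1, against 27.8% of all genes. It was CHML (-0.52 ± 0.15, adjusted p = 0.0547), while PTAR1 differed by -0.05 ± 0.10. COX10, a heme farnesyltransferase, was higher with the MYC vector (0.68 ± 0.13, adjusted p = 0.0172).

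By the root mean square difference of centred log2 CPM over the 12 libraries, a measure in which 0 means an identical profile, the pair of members most alike was FNTA and GGPS1 (0.20), followed by PGGT1B and CHM (0.24). FNTA and FNTB were 0.53 apart, and RABGGTA and RABGGTB 0.54. Among 11376 genes compared, those most like FNTA were COMMD6 (0.13), UBAC2 (0.14) and IFNGR1 (0.14), against a median distance of 0.59 from all genes. Those most like FNTB were SEC23A (0.12), RDX (0.14) and CFL2 (0.15), against a median of 0.65. The 12 libraries come from 3 lines, so they are not independent points. RCE1 shares 12.7% of its exonic bases with other genes' exons. The pseudogenes FNTAP1, FNTAP2 and PGGT1BP2 held 0 counts, and PGGT1BP1 and RABGGTBP1 held 2 each.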

How the data were processed

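The deposited table holds whole-number read counts per gene for 12 libraries, made by the authors with TopHat2, HTSeq and hg19, with DESeq2 also named, per the submitters' processing notes. Versions, the counting mode and strand are not given in the sources used here. The 5 summary rows (17.5 to 19.9% of counts) stayed out of library sizes and tests. Gene symbols were matched by identifier (51996 of 57820 rows).

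Counts were fitted with edgeR 4.0.16 (R 4.3.3): TMM scaling, a low-count filter (17096 genes kept), quasi-likelihood tests and Benjamini-Hochberg adjustment over all genes, with a call at an adjusted p under 0.05. Effects over lines came from a fit with line and group (6 residual degrees of freedom). It counts the 2 pairs of a line separately although they share that line's own response, so its p-values may be too small. Effects within or between lines came from a fit with each line's own vector and drug effects (3 residual degrees of freedom), which assumes no vector by drug interaction within a line. SE was the log2 difference divided by the square root of F. Log2 CPM had a prior count of 2. P-values measure the spread between these libraries.

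Replicate number here is the cell line, so the line is a block. Deviations from the group means correlated at 0.829 to 0.922 within a line (18 pairs of libraries) and at -0.551 to -0.307 between lines (36 pairs). Each group holds 1 library per line, so the centring itself makes the values between lines negative, and only those within a line bear on the block. The 10 genes, the lists and the comparisons were chosen with earlier results of these data known. Named genes are the 10 members, list genes that passed a test (or, where none did, those with the smallest p), CHML, and the 3 genes most like FNTA and FNTB. Alternatives were DESeq2 1.42.0, limma-voom 3.58.1, no low-count filter, other scaling, no line block, averaged line effects and leaving out libraries or lines. The fits were tested on simulated data. The promoter windows are RefSeq GRCh38.p14 and exon overlaps GENCODE 29, neither on the authors' build, so no coordinate is mapped to the counts. FNTA sequence is not shown, and some list genes that passed are not reported here.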

Additional observations from a re-analysis of the deposited data

Results flagged for a closer look

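For 3 of the 10 genes the response to tipifarnib differed between the lines by the test of the difference itself (edgeR quasi-likelihood F test, Benjamini-Hochberg adjusted over all genes): ICMT (adjusted p = 0.0297), ZMPSTE24 (0.0217) and GGPS1 (0.0326). ICMT had log2 differences of -0.97 ± 0.13 in MDA-MB-231, -0.13 ± 0.12 in SKOV3 and -0.17 ± 0.12 in A549. In the same order of lines, ZMPSTE24 had -0.57 ± 0.11, 0.36 ± 0.11 and -0.25 ± 0.11, with both SKOV3 pairs higher and the 4 other pairs lower with the drug. GGPS1 had 0.91 ± 0.13, 0.13 ± 0.12 and 0.08 ± 0.13. Over the 5 alternatives run for this test the adjusted p stayed between 0.000121 and 0.0315 for ICMT, 4.09e-05 and 0.0231 for ZMPSTE24, and 0.00282 and 0.0407 for GGPS1. These alternatives include the comparison of only SKOV3 and MDA-MB-231, which was chosen after the data were seen. None left out a library, so they cannot show how far the test rests on single libraries. The calls of these 3 genes within MDA-MB-231 were lost without some of its libraries. MYC RNA was also higher with tipifarnib in MDA-MB-231, and the A549 dose was lower. The part of either in these differences was not tested.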

How the results depend on the processing

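The lines set the spread, and leaving the line out of the fit (no replicate block) gave 0 genes called for tipifarnib and 0 for MYC over the lines, against 1929 and 1256 with the block; members called for MYC went from 1 to 0 (RABGGTB adjusted p = 1). Averaging each line's own effects called 4935 genes and 4 members (FNTA, FNTB, ICMT, GGPS1) for tipifarnib, and 4158 genes and 3 members (RABGGTB, RABGGTA, ICMT) for MYC. DESeq2 called 3032 and 2405 genes, with 2 members for tipifarnib, where limma-voom called 1. Without 1 line, 87 to 1174 genes were called for tipifarnib (87 without MDA-MB-231, 978 without A549, 1174 without SKOV3) and 10 to 148 for MYC, with 0 members for MYC. Without 1 line, 4 differences that were not called changed sign: for tipifarnib RABGGTB (-0.108 to 0.121, positive without A549) and ZMPSTE24 (-0.401 to 0.067, positive without MDA-MB-231), and for MYC FNTA (-0.071 to 0.199, negative without MDA-MB-231) and GGPS1 (-0.115 to 0.115, positive without A549).

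Within lines, leaving out 1 library gave 317 to 569 genes called for tipifarnib in A549 (1374 with all), 492 to 1469 in SKOV3 (2401) and 528 to 706 in MDA-MB-231 (3878), where members called fell from 3 to 0 without either MYC-vector library. For MYC it gave 1051 to 2067 genes in A549 (3034 with all; members 0 to 1 against 2), 137 to 835 in SKOV3 (1553) and 0 in MDA-MB-231 (281). Members called between A549 and MDA-MB-231 were 3 to 6, against 5. Without the low-count filter, tipifarnib in A549 had 2321 genes called, MYC in SKOV3 2441 and MYC in MDA-MB-231 1309 (DESeq2 873), the test between lines 3198 for tipifarnib (1314 with the filter, DESeq2 2217) and 1843 for MYC (524, DESeq2 971). Members called without the filter were 1 for tipifarnib in SKOV3 (also 1 with limma-voom and with DESeq2), 1 for MYC in A549 and 2 for MYC in MDA-MB-231 (DESeq2 1). Over all alternatives, 417 single-gene values kept direction and side of the threshold, 45 lost the call, 9 gained it and 4 changed sign. Depth limits FNTB most, with as few as 128 counts.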
